A study of Mus musculus with 8 samples.

Results

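The cyclic nucleotide signalling genes are the enzymes that make, break down and sense cAMP and cGMP. Their 40 members are set by gene identity, with no measured value in the rule, although earlier results of these data were known when they were chosen. They comprise 9 adenylyl cyclases, 2 membrane guanylyl cyclases, 8 phosphodiesterases that break down cAMP, 2 that break down cGMP and 7 that break down both. The remaining members are 6 subunits of protein kinase A, 2 Epac exchange factors, 2 transcription factors of the CREB family and 2 cGMP-dependent protein kinases. The phosphodiesterase 6 genes of the phototransduction cascade are not among them. All 40 genes were found on the array through the accession of each probe, and 75 of the 56605 probes represented them. The question was whether transcripts of this pathway differed between aged retinas with and without MRP4. Whole retina of mice aged 46 to 55 weeks had been collected from homozygous Mrp4 knockout mice, called Mrp4-null here, and from wild-type (WT) mice, with 4 arrays per genotype. The knockout was kept on a C57BL/6J background, and no treatment is named for either group. The methods name 3 mice for the harvest and 4 samples per genotype, and nothing says whether each sample came from a separate animal, so p-values measure the spread between these samples only.

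MRP4, encoded by Abcc4, is an efflux pump of the ABC family whose known cargo includes cAMP and cGMP. Adenylyl cyclases make cAMP, mostly under the control of G protein-coupled receptors, and guanylyl cyclases make cGMP. Phosphodiesterases end the signal by hydrolysing either nucleotide, and protein kinase A, Epac and protein kinase G carry it onward. Protein kinase A phosphorylates CREB, which binds the cAMP response element (CRE) in the promoters of its target genes. In photoreceptors, cGMP made by the retinal guanylyl cyclases holds the cation channels of the outer segment open in the dark.

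Promoter sequences are shown for 3 members, since the pathway ends at CREB and members can themselves carry its element. Adcy7 had the largest difference between genotypes of the 40, Prkaca lay with Adcy7 on the chromosome with the most called genes, and Prkar1a was the only member whose windows held the full element. The windows run from 250 bases before to 50 bases after an annotated start, are taken from RefSeq on GRCm38.p6 and are written on the plus strand, which is the strand of all 3 genes. Capitals mark the CRE core TGACG and its reverse complement CGTCA, which overlap in the full element TGACGTCA.
Adcy7, chr8:88282742-88283041: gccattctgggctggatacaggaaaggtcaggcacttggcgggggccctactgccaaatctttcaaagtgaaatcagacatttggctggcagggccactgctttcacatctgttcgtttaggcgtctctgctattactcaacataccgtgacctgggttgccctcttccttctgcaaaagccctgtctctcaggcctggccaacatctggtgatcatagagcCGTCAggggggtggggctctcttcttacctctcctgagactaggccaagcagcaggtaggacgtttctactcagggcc
Prkaca, chr8:83972728-83973027: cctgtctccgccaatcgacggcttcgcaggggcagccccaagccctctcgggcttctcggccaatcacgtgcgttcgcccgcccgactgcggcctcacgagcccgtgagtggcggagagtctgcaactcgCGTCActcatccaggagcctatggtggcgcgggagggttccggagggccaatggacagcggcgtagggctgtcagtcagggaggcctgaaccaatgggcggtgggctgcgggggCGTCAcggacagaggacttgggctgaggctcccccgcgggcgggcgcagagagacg
Prkar1a, chr11:109650699-109650998: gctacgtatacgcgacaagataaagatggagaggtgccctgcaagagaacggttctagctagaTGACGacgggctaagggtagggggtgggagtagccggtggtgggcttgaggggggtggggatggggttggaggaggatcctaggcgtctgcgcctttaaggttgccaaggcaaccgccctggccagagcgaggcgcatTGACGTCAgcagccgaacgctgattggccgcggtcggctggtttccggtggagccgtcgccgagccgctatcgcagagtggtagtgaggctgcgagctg
The windows shown were chosen among those of each gene that held the core, or the full element for Prkar1a. The core was in 1 of 3 windows of Adcy7, 1 of 2 of Prkaca and 3 of 6 of Prkar1a. The full element was in 2 of the 6 windows of Prkar1a. The Adcy7 window shown held 1 core, which began 28 bases before the start. The Prkaca window shown held cores that began 120 and 6 bases before the start. In the Prkar1a window the full element began 49 bases before the start and a further core 187 bases before it. Windows were given for 32 of the 40 members. The core was present in 17 of 70 member windows (24.3%) and in 20.8% of all 32851 windows. By gene it was present in at least 1 window of 15 of the 32 members (46.9%) and of 23.0% of all 27025 genes, and the members had more windows per gene, which gives a gene more chances to hold it. The full element was present in 2 member windows (2.86%), both of Prkar1a, and in 1.79% of all windows. Windows of a gene overlap one another, and a match describes letters, not binding.

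Each single-color Cy3 array was read as a log2 signal per probe, normalized by the quantile method over 37085 probes, which had to stand well above background throughout at least 1 genotype. No spot was saturated, and between 72 and 74 of the 75 member probes were well above background on each array. The labels were checked first against the targeted gene. For Abcc4, the arrays labelled Mrp4-null gave log2 signals of 10.84, 10.71, 10.64 and 10.80, whereas WT arrays gave 6.62, 7.13, 6.54 and 7.02. Abcc4 was thus higher under the knockout label (log2 difference 3.92, SE 0.14, adjusted p = 1.36e-05, exact permutation p = 0.0286, the smallest that 4 against 4 arrays allow). Which part of the gene was deleted, and whether its single retained probe lies there, is not given in the sources used here. All directions below follow the labels as deposited, so "higher" means higher on the arrays labelled Mrp4-null, called null-labelled arrays from here on. Probes of Y-linked genes were well above background on 3 WT arrays (replicates 2, 3 and 4) and on no other array. The Xist probe was well above background on all 4 null-labelled arrays and on WT replicates 1 and 2, so WT replicate 2 carried both signals. All 8 arrays lay on a single slide with each genotype in its own row, so row and genotype cannot be told apart. Markers of rods, cones, bipolar, horizontal, amacrine and ganglion cells and Muller glia were retained and well above background on all 8 arrays. All 12 lens markers had a lower mean on the null-labelled arrays, and their mean log2 signal ranged from 6.16 to 8.53 there and from 7.37 to 9.74 on the WT arrays. Of the lens markers, 0 passed the limma test, 7 of their 17 probes were at an unadjusted p under 0.05 and 15 were called by the local pooled error test. The lens probes A_52_P660422 (Mip), A_55_P2007645 (Cryaa) and A_51_P129038 (Bfsp1) were retained only through the WT group, where they are high. That filter favours a difference. Of the other marker lists, 0 probes were called by either test. Endothelial markers had 4 of 5 genes lower (median log2 difference -0.36, 2 of 5 probes at an unadjusted p under 0.05), with a mean log2 signal of 7.48 to 8.02 on the null-labelled and 7.95 to 8.25 on the WT arrays. Bipolar markers had 4 of 5 genes higher (median 0.20, 3 of 12 probes at that level), at 14.06 to 14.19 against 13.90 to 14.09. The probes A_55_P1990623 of Grm6 (0.24) and A_51_P338031 of Trpm1 (0.37) were higher without overlap, while the other probes of these genes overlapped. Muller glia markers had 4 of 5 genes lower (median -0.05, 2 of 9 probes), at 13.38 to 13.52 against 13.51 to 13.57, and both probes of Aqp4 were lower without overlap (-0.39 and -0.36). Cone markers had 2 of 4 genes lower (median 0.02, 2 of 7 probes), at 14.68 to 14.80 against 14.66 to 14.74, and both probes of Arr3 were higher without overlap (0.34 and 0.23). Ganglion cell markers had 4 of 5 genes lower, microglia markers 3 of 4 lower, pigment epithelium markers 5 of 6 higher and the retained blood markers 3 of 3 higher, with 0 probes at that level. Over all retained probes, 6.46% were at that level and 4.79% did not overlap between genotypes. The part of these lists in the member values was not tested.

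None of the cyclic nucleotide signalling members was called different between genotypes, and their differences were of the size found over all genes. A call required a change of 1.5-fold or more together with a Benjamini-Hochberg adjusted p under 0.05 in the limma fit over all retained probes, and 0 of the 73 retained member probes were called. Over all retained probes 202 (0.545%) were called, 95 higher and 107 lower. The local pooled error test, which the study's methods name, also called 0 member probes, against 0.626% of all retained probes. The adjustment of its p-values was added here, and at its unadjusted p under 0.05 with the same fold limit 1 member probe passed, that of Adcy7, against 1.43% of all. At an unadjusted p under 0.05 there were 2 member probes (2.74%), against 6.46% of all. For 1 member probe (1.37%) the values of the genotypes were fully apart, against 4.79% of all. Of the 40 genes, each represented by its retained probe with the highest mean signal, 17 had a log2 difference above 0 and 23 below 0. The median log2 difference of the members was -0.02, against -0.01 over all 16093 named genes, and the median absolute log2 difference was 0.06 against 0.07. In bulk retina, fewer cells of a type and less RNA per cell cannot be told apart.

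The intervals show which differences the arrays leave room for. For 33 of the 40 members (82.5%) the 95% confidence interval lay wholly within a 1.5-fold change in either direction, against 81.9% of all named genes. The narrowest interval was that of Prkaca, from -0.12 to 0.20 on the log2 scale, and the widest was that of Adcy8, from -0.96 to 0.81. The 7 members whose intervals reached a 1.5-fold change were Adcy7, Adcy8, Rapgef4, Pde3a, Pde7b, Pde10a and Pde4d. The interval of Pde10a passed that limit only narrowly, with its lower end at -0.587, and that of Gucy2e ended just inside it at -0.584. For these 7 genes a 1.5-fold difference was not excluded by the 8 arrays. All these intervals are those of the representing probes. Dimmer probes of Pde7a, Pde8b, Prkacb, Prkar1b, Creb1, Crem and Prkg2 also had intervals that reached a 1.5-fold change. The lowest end among them was -0.87, for Prkg2. The median SD between arrays over the members was 0.18 on the null-labelled arrays and 0.13 on the WT arrays.

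**Figure D1:**
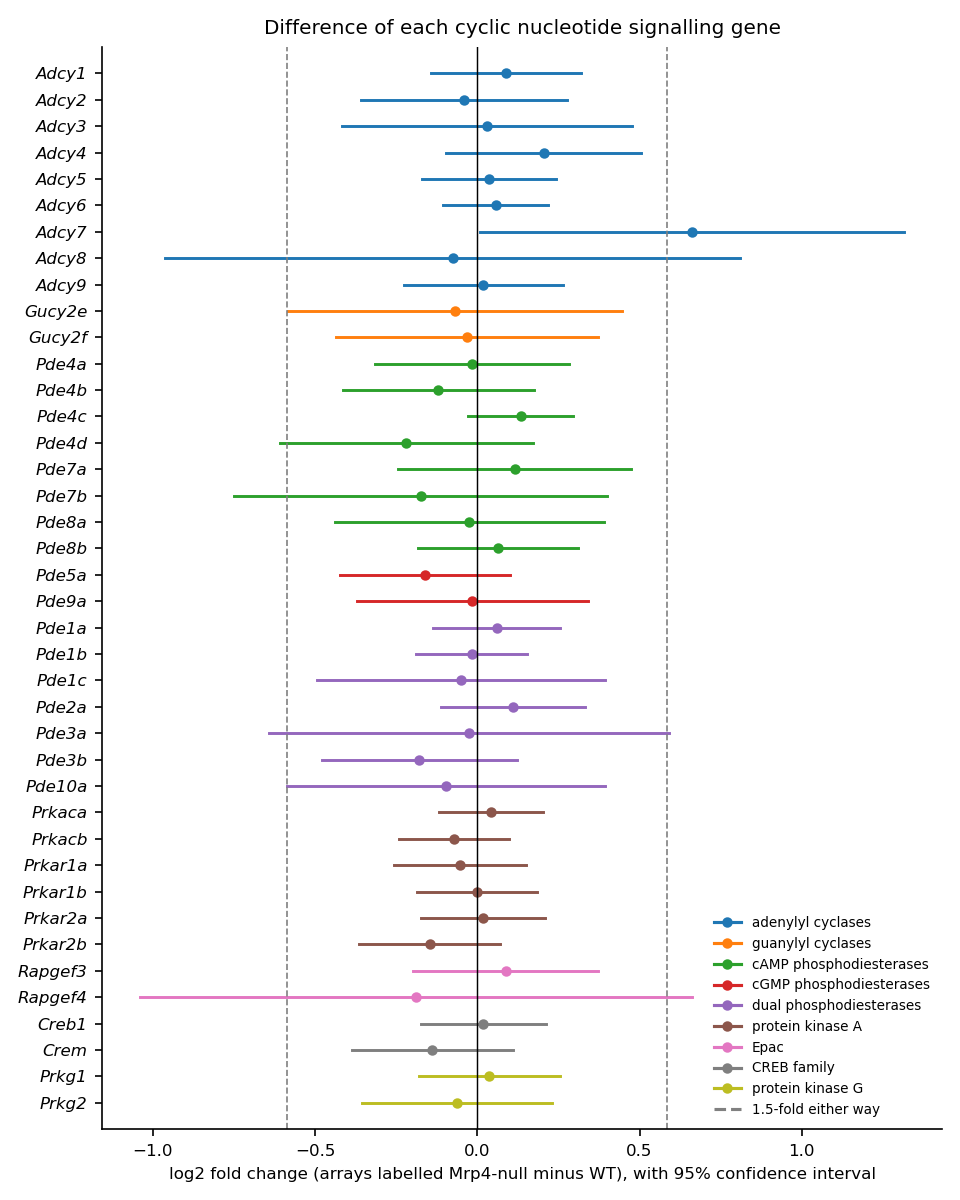
Log2 fold change of each of the 40 members (null-labelled arrays minus WT, 4 arrays each) with its 95% confidence interval from limma, colored by role, with dashed lines at a 1.5-fold change either way. For 33 members the interval lies between the dashed lines, and only the interval of Adcy7 lies wholly on one side of 0.

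Among the adenylyl cyclases, 7 genes had a log2 difference above 0 and 2 below 0, and 0 of their 13 retained probes were called. Adcy7 encodes a calcium-insensitive cyclase and lies on chromosome 8. Its log2 signal was 6.87, 6.16, 6.997 and 6.80 on the null-labelled arrays and 5.83, 6.62, 5.37 and 6.36 on the WT arrays. Of the former arrays, 3 lay above all WT arrays, and replicate 2 lay below WT replicates 2 and 4. The means were 6.71 ± 0.37 and 6.05 ± 0.56 (SD, n = 4 each). The fitted difference of 1.58-fold (log2 0.66, SE 0.29, 95% interval 0.01 to 1.31) was the largest of the members, and it did not pass the limma test (adjusted p = 0.763). The local pooled error test gave it an unadjusted p of 0.0047 and an adjusted p of 0.418. It was 0.39 on the log2 scale with another background correction, normexp, and leaving out single arrays moved it both ways, from 0.44 without WT replicate 3, the lowest of the 8 arrays for this gene, to 0.85 without WT replicate 2. It was 0.88 against WT replicate 1 alone.

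The other adenylyl cyclases were closer to 0. The calcium-activated neuronal cyclases Adcy1 and Adcy8 differed by 0.09 (SE 0.10) and -0.08 (SE 0.39) on the log2 scale. The signal of Adcy8 was 7.67, 6.10, 6.85 and 7.61 on the null-labelled arrays and 6.67, 7.70, 6.67 and 7.49 on the WT arrays. The ranges of the genotypes overlapped, and the wide interval of Adcy8 came from arrays of the same genotype that lay apart. Adcy4 had the next largest difference after Adcy7, 0.20 (SE 0.13), and the differences of Adcy2, Adcy3, Adcy5, Adcy6 and Adcy9 lay between -0.04 and 0.06.

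Gucy2e and Gucy2f encode the photoreceptor guanylyl cyclases that restore cGMP after light. Neither was called. Gucy2e was 7.68, 8.53, 7.89 and 7.53 on the null-labelled arrays and 8.02, 7.68, 8.33 and 7.87 on the WT arrays. Its groups overlapped over most of their range, and its log2 difference of -0.07 (SE 0.23) changed sign when any of 3 single arrays was left out. Gucy2f, on the X chromosome, differed by -0.03 (SE 0.18), and its second probe by -0.05.

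Of the phosphodiesterases that break down cAMP, 3 genes lay above 0 and 5 below 0. Pde4d, a cAMP phosphodiesterase of the rolipram-sensitive family, had 5 retained probes, and all 5 had a lower mean under the Mrp4-null label, with log2 differences between -0.26 and -0.09. The probe A_55_P2010396 was at 6.86, 7.15, 6.72 and 6.90 on the null-labelled arrays and at 7.17, 7.06, 7.21 and 7.22 on the WT arrays. Only replicate 2 of the former reached the range of the latter. The log2 difference of this probe was -0.26 (SE 0.10, 95% interval -0.49 to -0.02), which limma did not call (adjusted p = 0.685). It was -0.17 with the normexp correction. The representing probe of Pde4d, A_51_P120990, differed by -0.22 (SE 0.17), and by -0.11 without replicate 1 or -0.38 without replicate 2 of the null-labelled arrays.

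Pde4c, another member of that family and on chromosome 8, had the only member probe whose genotypes did not overlap after quantile normalization. The log2 signal of A_55_P1973779 was 16.65, 16.65, 16.76 and 16.68 on the null-labelled arrays and 16.63, 16.52, 16.53 and 16.52 on the WT arrays. The lowest of the former and the highest of the latter nearly met, since WT replicate 1 stood above the other 3. Before normalization the log2 signals were 16.78, 16.48, 16.84 and 16.76 against 16.71, 16.69, 16.35 and 16.37, and the genotypes overlapped. They also overlapped after a shift of each array by its 75th percentile, at 7.18 to 7.52 against 7.07 to 7.34. The difference of 0.13 (SE 0.07, 95% interval -0.03 to 0.29) did not pass the limma test (adjusted p = 0.911), and it was 0.05 against WT replicate 1 alone, the only WT array without Y-linked signal. The probes of Pde4c disagreed on its presence. The second, A_52_P573543, was not well above background on any of the 8 arrays, so the level read from the first is uncertain as a measure of this gene.

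The remaining cAMP phosphodiesterases, Pde4a, Pde4b, Pde7a, Pde7b, Pde8a and Pde8b, had log2 differences between -0.17 and 0.12. Pde7b had the widest interval of these, from -0.75 to 0.40, with a signal of 5.51, 5.95, 4.83 and 4.95 on the null-labelled arrays and of 5.41, 5.32, 5.88 and 5.33 on the WT arrays. The highest value in either genotype was that of replicates 2 and 3, respectively.

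Both phosphodiesterases that break down cGMP lay below 0. Pde5a, the target of sildenafil, was at 8.29, 8.62, 8.20 and 8.21 on the null-labelled arrays and at 8.33, 8.55, 8.49 and 8.59 on the WT arrays. The values of replicates 1, 3 and 4 under the Mrp4-null label lay below all WT arrays, and replicate 2 lay above them. The difference was -0.16 (SE 0.11), and it was -0.26 without replicate 2 of the null-labelled arrays and -0.0013 against WT replicate 1 alone. Pde9a, which has a high affinity for cGMP, differed by -0.02 (SE 0.16).

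Of the phosphodiesterases that break down both nucleotides, 2 genes lay above 0 and 5 below 0. The largest difference was that of Pde3b, which cGMP inhibits, at -0.18 (SE 0.13). Its signal was 7.67, 7.41, 8.01 and 7.76 on the null-labelled arrays and 7.83, 8.03, 7.74 and 7.96 on the WT arrays, and the groups overlapped. The difference was -0.08 without replicate 2 and -0.28 without replicate 3 of the null-labelled arrays. Its second probe, A_66_P130720, was not retained, as it was well above background on only 2 null-labelled arrays and on 0 WT arrays. Pde3a differed by -0.02 with an interval from -0.64 to 0.59. Pde2a, which cGMP activates, differed by 0.11 (SE 0.10), and the calmodulin-dependent enzymes Pde1a, Pde1b and Pde1c by 0.06, -0.02 and -0.05. Pde10a differed by -0.10 (SE 0.22).

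**Figure D2:**
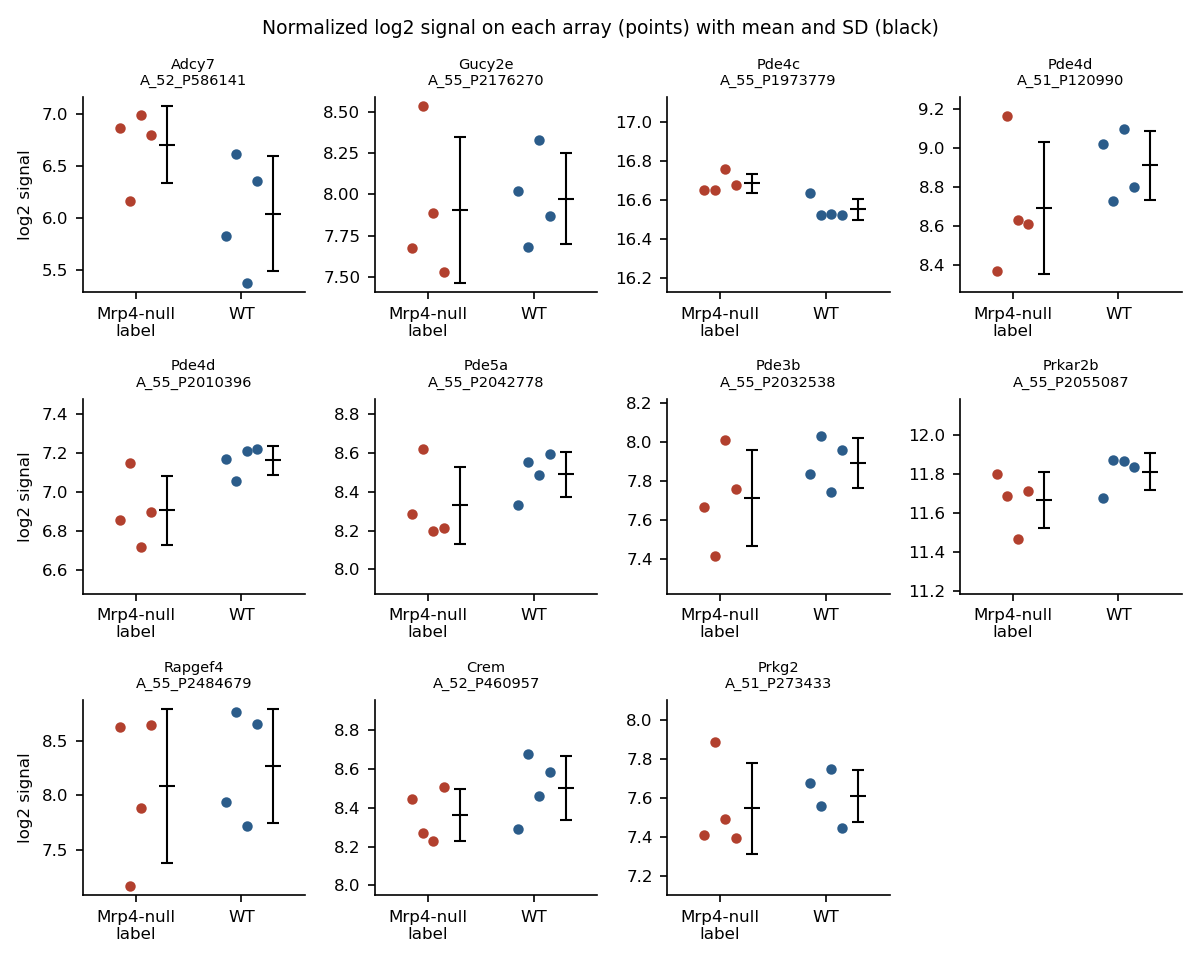
Normalized log2 signal on each array (points) for 11 probes of 10 members, with the mean and SD in black, null-labelled arrays in red and WT in blue, in replicate order from left to right and with at least 1 log2 unit on each vertical axis. The groups overlap in every panel except that of Pde4c, and replicate 2 under the Mrp4-null label stands apart in several panels.

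Of the roles, protein kinase A had the narrowest intervals, with a median reach of 0.19 on the log2 scale to either side. For the representing probes of all 6 subunits of protein kinase A the interval lay within a 1.5-fold change, and 0 of 11 probes were called. The intervals of the second probes of Prkacb (-0.63 to 0.29) and Prkar1b (-0.64 to 0.52) passed that limit. The catalytic subunits Prkaca and Prkacb differed by 0.04 (SE 0.07) and -0.07 (SE 0.07). The regulatory subunits Prkar1a, Prkar1b and Prkar2a, which hold the catalytic subunits inactive until cAMP binds, differed by -0.05, -0.00034 and 0.02. Prkar2b, the regulatory subunit found mainly in neurons and fat, had the largest difference of this group at -0.15 (SE 0.10). It was at 11.80, 11.69, 11.47 and 11.71 on the null-labelled arrays and at 11.68, 11.87, 11.87 and 11.83 on the WT arrays, where replicate 1 alone lay within the range of the former. The difference was -0.01 against WT replicate 1 alone and -0.08 without replicate 3 of the null-labelled arrays.

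Epac proteins activate the small G protein Rap when cAMP binds. Rapgef4, which encodes Epac2, was at 8.63, 7.16, 7.89 and 8.65 on the null-labelled arrays and at 7.94, 8.77, 7.72 and 8.66 on the WT arrays. Each genotype had arrays above 8.6 and arrays below 8.0, and the difference of -0.19 (SE 0.37) was 0.12 without replicate 2 of the null-labelled arrays. Its other probes differed by -0.20 (SE 0.10) and -0.36 (SE 0.20). Rapgef3, which encodes Epac1, differed by 0.09 (SE 0.13).

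In the CREB family, Crem had 4 retained probes with log2 differences between -0.14 and -0.12. Its representing probe was at 8.44, 8.27, 8.23 and 8.51 on the null-labelled arrays and at 8.29, 8.67, 8.46 and 8.58 on the WT arrays. The groups overlapped, and the difference of -0.14 (SE 0.11) became 0.07 against WT replicate 1 alone. Creb1, the founding member of the family, differed by 0.02 (SE 0.08), and its 4 probes lay on both sides of 0. The cGMP-dependent kinases Prkg1 and Prkg2 differed by 0.04 (SE 0.10) and -0.06 (SE 0.13). For Prkg2 the signal was 7.41, 7.89, 7.49 and 7.39 on the null-labelled arrays and 7.68, 7.56, 7.75 and 7.45 on the WT arrays, again with overlap. Its difference was -0.18 without replicate 2 and -0.01 without replicate 4 of the null-labelled arrays, and -0.17 as the mean over its probes. That mean includes its second probe, which differed by -0.27 at a mean log2 signal of 4.49. The second probe was well above background on 3 of 4 null-labelled and 4 of 4 WT arrays. It was thus retained only through the WT group, where it is higher.

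Probes of the same gene were set beside one another, although whether they read the same transcripts was not tested. Of the 40 members, 23 had more than 1 retained probe. The signs agreed for 18 of these genes and differed for Pde7a, Pde8b, Prkar2a, Creb1 and Prkg1. The median spread between the probes of a gene was 0.07 on the log2 scale, and the largest was 0.41 for Pde7a, whose probes differed between genotypes by 0.12 and -0.29. The next largest spread was 0.20, for Prkg2 and Pde8b, and the second probe of Prkg2 was retained only through the WT group. The median absolute difference between genotypes over the 40 members was 0.06. It is an unlike measure, since the spread is a range over the probes of a gene.

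**Figure D3:**
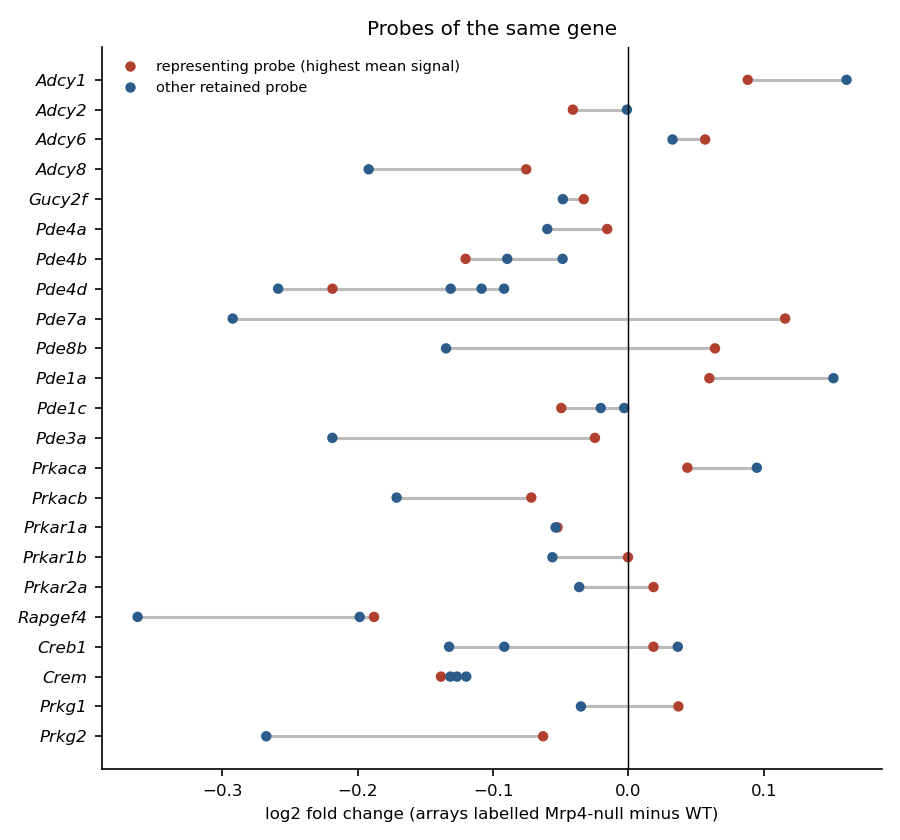
Log2 fold change (null-labelled arrays minus WT) of every retained probe of the 23 members with more than 1, with the representing probe in red, other probes in blue and a grey line over their range. The 4 probes of Crem lie between -0.14 and -0.12, while the probes of Pde7a lie on both sides of 0.

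Within each genotype, single arrays stood apart for many members. Replicate 2 of the null-labelled arrays was the lowest or the highest of its 4 arrays for 32 of the 40 members, lowest for 13 and highest for 19. That is 80% of the members, against 71.9% of all named genes. Relative to the mean of the other 3 arrays it was lower by 1.28 for Adcy8, by 1.23 for Rapgef4 and by 0.72 for Adcy7. It was higher by 1.01 for Pde3a, by 0.86 for Pde7b and by 0.83 for Gucy2e. WT replicate 3 deviated in the same direction for 31 of the 40 members (77.5%), for example lower by 0.89 for Adcy7, by 0.74 for Rapgef4 and by 0.62 for Adcy8 and higher by 0.53 for Pde7b and by 0.47 for Gucy2e. The same was so for 80.3% of all named genes, so it was shared with genes outside the pathway. These were the arrays with the lowest signal in each genotype, with a 75th percentile of 497 and 514 before normalization, against 566 to 786 on the other 6. The part of signal strength in these deviations was not tested. Without both arrays 0 member probes were called, the median difference was -0.04, Adcy7 differed by 0.63 and 30 members had an interval within a 1.5-fold change.

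Even probes of the same gene could part on these arrays. The Pde4d probe A_65_P12530 was at 9.21, 7.89, 8.20 and 9.10 on the null-labelled arrays, with its lowest value on replicate 2, whereas A_51_P120990 was at 8.37, 9.16, 8.63 and 8.61, with its highest value there. The differences between genotypes of these probes were nonetheless of the same sign, -0.11 (SE 0.35) and -0.22 (SE 0.17).

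**Figure D4:**
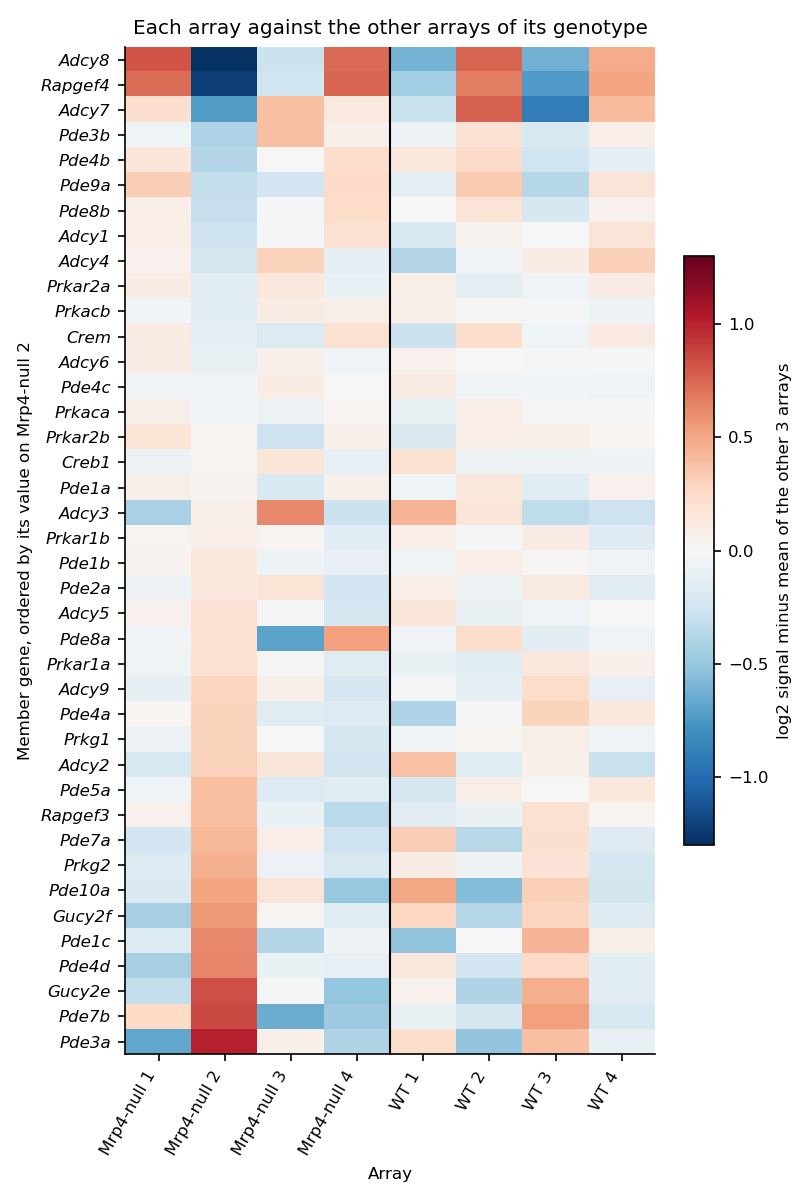
Log2 signal of each member on each array minus the mean of the other 3 arrays of its genotype (color), with members ordered by their value on replicate 2 of the null-labelled arrays. That array and WT replicate 3 deviate in the same direction for 31 of the 40 members.

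The position of the members relative to called genes was described after the values had been seen. With up to 20 tested genes taken on each side, 38 of the 40 members (95%) had 0 called genes around them, against 90.1% of all 16093 named genes. Fewer genes were left on a side for 4 members, and Crem had only 20 neighbours in all. The exceptions were Adcy7 with 6 of 40 and Prkaca with 5 of 40, both on chromosome 8, where 35 of 837 named genes (4.18%) were called. Around Adcy7, N4bp1 (0.63), Snx20 (0.78), Nod2 (1.13) and Slc6a2 (3.13) were higher and Crnde (-1.50) and Lpcat2 (-0.97) lower. Around Prkaca, Zfp330 (-0.95), Rnf150 (-1.62), Tbc1d9 (-0.71), Scoc (-0.94) and Podnl1 (-0.66) were lower, while Prkaca itself differed by 0.04. Pde4c, the third member on chromosome 8, had 0 called genes around it, as had Adcy4 on chromosome 14, where 20 of 558 genes were called, and Pde4b on chromosome 4, where 23 of 1015 were called.

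**Figure D5:**
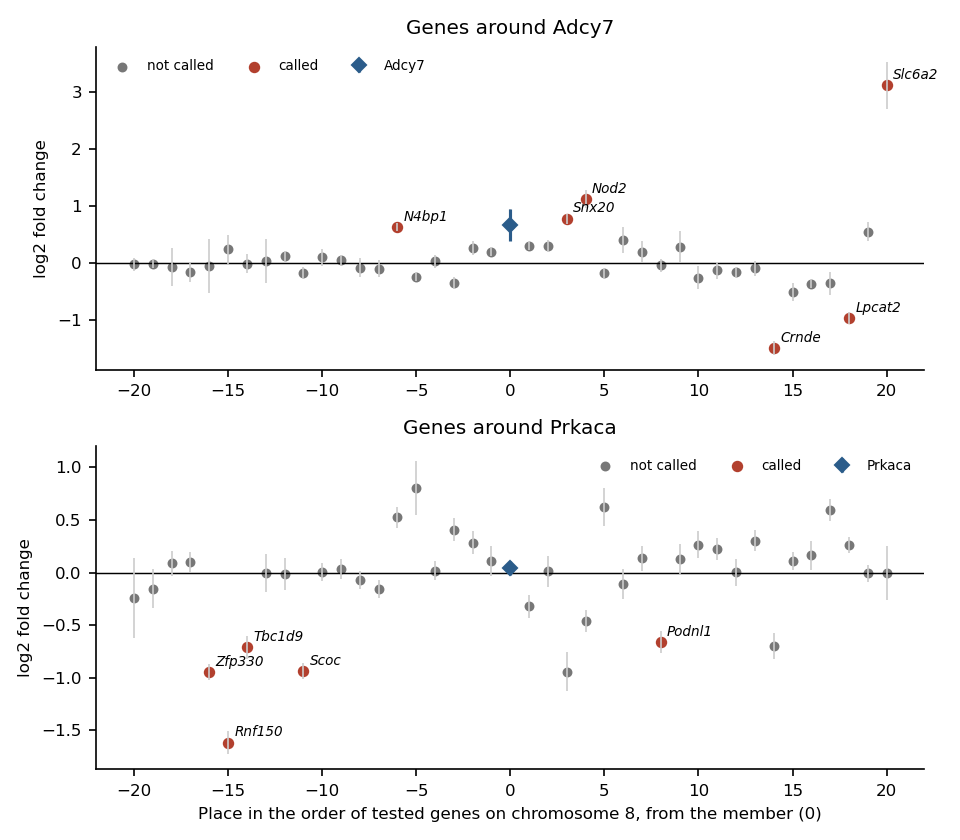
Log2 fold change (null-labelled arrays minus WT) with its standard error for the 20 tested genes on each side of Adcy7 (top) and Prkaca (bottom), in their order along chromosome 8, with called genes in red and the member as a blue diamond. Adcy7 (0.66) lies among called genes of both directions, and Prkaca (0.04) lies near 0 between lower called genes.

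The wider pathway was read from lists of 92 further genes, of which 82 had a retained probe. Of their 135 probes, 2 met the rule for a call, those of Abcc4 and of Nppb, and 15 were at an unadjusted p under 0.05 (11.1%, against 6.46% of all retained probes). Nppb encodes brain natriuretic peptide, a ligand of the cGMP-forming receptor Npr1. Its probe A_66_P125089 was at 3.54, 2.64, 4.24 and 4.60 on the null-labelled arrays and at 5.84, 6.31, 5.84 and 6.51 on the WT arrays. The genotypes did not overlap, and the probe was well above background on 2 of 4 and on 4 of 4 arrays, so it was retained only through the WT group, where it is high. A filter passed through the higher group alone favours a difference, so the values of this probe are given as a description. The fitted log2 difference was -2.37 (SE 0.39, adjusted p = 0.0412), and its size is uncertain. It was -0.75 with the normexp correction, and the probe drops out when all 8 arrays must be well above background. A second probe differed by -1.04 (SE 0.23) and was not called (adjusted p = 0.153), and the call of the first was lost when any of 6 single arrays was left out, which were replicates 1 and 3 of the null-labelled arrays and all 4 WT arrays in turn. Nppb and Nppa lie on chromosome 4, and Nppa differed by -0.30 (SE 0.09, adjusted p = 0.397), or by -0.03 at its second probe.

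Among the ligands and receptors, 8 genes lay above 0 and 11 below 0, and Drd4, the dopamine receptor of photoreceptors, had the largest positive difference (0.22, SE 0.17). Of the G proteins, Gnao1 (0.20) and Gnai3 (-0.12) lay at the ends of the range. Of the other cyclases, activators and NO synthases these were Gucy2c (0.50) and Nos2 (-0.07). Of the protein kinase A anchors and inhibitors they were Akap5 (0.36) and the inhibitor Pkia (-0.16). None of these passed the limma test. Gucy2c was well above background on 2 of 4 WT arrays. It was thus retained only through the null-labelled group, where it is higher, and this filter favours a difference.

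Of the 19 probes of cyclic nucleotide gated channels and Popeye proteins, 0 were called by limma or by the local pooled error test, and 4 were at an unadjusted p under 0.05. Cngb1, the beta subunit of the rod channel, was at 16.22, 16.21, 16.23 and 16.24 on the null-labelled arrays, against 16.56, 16.47, 16.39 and 16.43 on the WT arrays. The difference was -0.24 (SE 0.07, adjusted p = 0.389), but its other probes differed by 0.18 and 0.11. Popdc3, a cAMP-binding Popeye protein, had the lowest value of this list (-0.38, SE 0.20).

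The targets of CREB lay on both sides of 0. Of 11 genes, 5 were above and 6 below, and 0 of their 14 probes were called. Junb was at 12.04, 12.34, 12.83 and 12.24 on the null-labelled arrays and at 11.99, 11.92, 11.88 and 11.92 on the WT arrays, without overlap and with a difference of 0.44 (SE 0.16, adjusted p = 0.574). Bdnf was at 8.82, 8.997, 8.65 and 9.35 against 9.32, 9.44, 9.22 and 9.48, with a difference of -0.41 (SE 0.15, adjusted p = 0.601). The immediate early genes Fos, Fosb, Egr1 and Nr4a1 differed by -0.09, 0.10, 0.12 and 0.13. Promoter windows were given for 9 of the 11 targets, and the CRE core shown above was present in 10 of their 16 windows (62.5%), against 20.8% of all windows. The list was chosen as targets of CREB, which favours windows with the core. The full element was present in 0 of the 16 windows, against 1.79% of all windows. The CREB partners lay between Crtc2 (-0.01) and Crebbp (0.22), with 0 of 11 probes called, and Abcc5, a related cyclic nucleotide pump, differed by -0.03 (SE 0.08).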

How the data were processed

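Retinal RNA was hybridized to 8 single-color arrays, 4 per genotype. The authors deposited scanner output, in which Agilent Feature Extraction 11.0.1.1, named in the submitters' processing notes, gives a background-subtracted signal intensity per spot, not normalized between arrays. A table of linear intensity values was also deposited by the authors, and it held the mean processed signal of each probe with outlier spots included. Log2 intensities were taken here, and spots of a probe were averaged without control and outlier spots. A probe was retained if all measured arrays of either genotype were well above background (at least 3 measured arrays there, 2 in the other). Retained values were quantile normalized, as the study's methods state, and 37085 of 56605 probes remained. The number of arrays limits the precision.

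Accessions named 32994 probes (58.3%) through RefSeq's table of GRCm38.p6. The array design carries an older build, so no gene coordinates are given beyond those of the promoter windows shown. Genotypes were compared with limma 3.58.1 in R 4.3.3 (lmFit, eBayes, genotype as the only term), with Benjamini-Hochberg adjustment over all retained probes, which was tested on simulated data. The local pooled error test was written for this work, with bins at every 0.01 quantile of intensity and a spline of 10 degrees of freedom. Members, lists and the rule for named genes were chosen with earlier results of these data known. Full statistics went to members with a probe called, at an unadjusted p under 0.05 or without overlap, to the largest difference in each role, and to the ends of each wider list. Same-numbered arrays of the genotypes correlated in their deviations at -0.29, -0.69, 0.03 and 0.41, so the numbers do not pair them. Alternatives were other normalization, background correction, filters, tests, a replicate block and arrays left out. Protein sequences were not used here, and a gene of the wider lists is not reported here.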

Additional observations from a re-analysis of the deposited data

Results flagged for a closer look

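In 4 of 82 sets of 4 arrays, a single array stood apart from the other 3 of its genotype by more than Dixon's 95% limit for its gap over the range, where chance gives about 1 in 20. For Creb1 (A_55_P2804962), WT replicate 1 was at 10.75 on the log2 scale and the others between 10.54 and 10.55. For Pde4c (A_55_P1973779), WT replicate 1 was at 16.63 and the others between 16.52 and 16.53. For Pde1a (A_52_P526565), replicate 3 of the arrays labelled Mrp4-null was at 8.95 and the others between 9.13 and 9.16. For Pde7b (A_55_P1959938), WT replicate 3 was at 5.88 and the others between 5.32 and 5.41.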

How the results depend on the processing

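The count of called member probes was 0 in the main fit and under all alternatives run, and their median log2 difference stayed between -0.04 and 0.03. The number of members with an interval within a 1.5-fold change was 30 to 38. Over all retained probes, 202 were called, against 71 with the replicate block, 9 when only arrays without Y-linked signal were used, 124 without the dimmest array of each genotype, and 117 to 183 when single arrays were left out. Both choices of arrays by signal were made after seeing the data, and the cause of each change was not tested. The fit on arrays without Y-linked signal sets 4 arrays against WT replicate 1 and assumes that this lone array varies like the others. In the wider pathway, 2 probes were called, and 1 after the 75th percentile shift, with no filter on dim probes, with probes well above background on all 8 arrays (which drops the Nppb probe), with the replicate block, with only arrays without Y-linked signal and without the dimmest array of each genotype. Leaving out single arrays gave 1 to 2. The probe lost in each was that of Nppb, and normexp correction put it at -0.75. The numbers do not pair the arrays, and no array labelled Mrp4-null correlated best with the WT array of its own number. WT replicate 4 did correlate best with replicate 4 of the arrays labelled Mrp4-null (0.41). Of 219 alternative values for 11 named probes, 213 kept their sign and 6 changed it. Leaving out single arrays put Gucy2e between -0.28 and 0.056 and Rapgef4 between -0.38 and 0.12. The changes were Gucy2e without replicates 1 and 4 of the arrays labelled Mrp4-null (0.0088 and 0.056) and without WT replicate 3 (0.051), Rapgef4 without replicate 2 of the arrays labelled Mrp4-null (0.12) and with only arrays without Y-linked signal (0.15), and Crem with only the latter (0.071). With 4 arrays per genotype the median interval of a member reached 0.29 on the log2 scale to either side.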
